A study of Mus musculus with 4 samples.

Results

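The urokinase system and the matrix proteases with their inhibitors were followed in RAW264.7 cells, a mouse macrophage line, grown with or without CT26 cells, a mouse colon carcinoma line. The members were 9 genes named by symbol: Plau, Plaur, Serpinb2, Mmp12, Mmp13, Mmp14, Timp1, Timp2 and Adam8. All 9 were found among the 22554 genes named once in both deposited tables. The libraries were 2 mock libraries (RAW264.7 without CT26) and 2 coculture libraries (RAW264.7 with CT26), prepared with a messenger RNA kit; the labels name no allele or drug for either line. RAW264.7 was grown in DMEM and CT26 in RPMI1640. The length of the coculture, whether the cells touched, and how the macrophages were recovered are not given in the labels. Mock 1 and coculture 1 form pair 1, in 1 table, and mock 2 and coculture 2 form pair 2, in the other, and levels were compared within a pair. The labels do not say that the replicates are separate cultures, so the p-values cover no more than the spread of these 4 libraries, and that spread may be technical.

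Urokinase, the product of Plau, is a secreted serine protease that cuts plasminogen into plasmin. Plasmin breaks down fibrin and matrix proteins and activates some matrix metalloproteinases. The urokinase receptor, from Plaur, is a glycolipid-anchored surface protein that holds urokinase at the cell edge and works with integrins in adhesion and migration. Serpins such as PAI-2, the product of Serpinb2, block urokinase. Matrix metalloproteinases cut collagens, elastin and other matrix proteins and are inhibited by the TIMP proteins, while ADAM proteases mostly act on cell-surface proteins. Macrophages use both systems to cross tissue, and both are much studied in tumour-associated macrophages.

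The members' levels ran from 492 FPKM to a listed 0. FPKM, a fragment count divided by gene length and library size, is a level per length, so it can be compared between genes. Plau, Plaur and Adam8 together made 97.7% to 99.7% of the members' summed FPKM in each library. Timp1 was low in mock and reached 15.2 and 3.31 FPKM in coculture. The other 5 members, Serpinb2, Mmp12, Mmp13, Mmp14 and Timp2, did not reach 1 FPKM in at least 2 libraries and were not tested. Timp1 met that filter through its coculture libraries alone, so it could pass only if it was higher there. In both pairs, 5 members were higher in coculture (Plaur, Timp1, Serpinb2, Mmp14 and Adam8) and 2 were lower (Plau and Timp2). Serpinb2 and Mmp14 were listed at 0 in both mock libraries and so could not be lower. Timp2 rested on an estimated 5.36 reads in mock 1 and 5.37 in coculture 1. Of the 4 members tested, 3 were higher in both pairs and 1 was lower. Of all genes tested, 21.5% were higher in both pairs and 42.2% lower. Mmp12 went in opposite directions, and Mmp13 was listed at 0 in both libraries of pair 2.

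The libraries held an estimated 12200000 to 16200000 reads, from the value of 1 read in genes with low FPKM. These totals are approximate, since 44.2% to 49.1% of the low values came within 0.1 of a whole read. All 12 macrophage markers reached the filter. In both pairs, 2 were higher and 7 lower, against 21.5% and 42.2% of all genes tested. The markers' median difference was -0.21, against -0.07 over all genes tested, and 0 passed the adjusted test. At an unadjusted limma p under 0.05, 1 was higher and 4 were lower, against 5.26% and 9.45% of all genes tested. Their summed FPKM was 10400 and 6990 in mock and 10900 and 13700 in coculture, a sum in which Lyz2, the lysozyme gene, had 7088 FPKM in mock 1 against 6585 FPKM with CT26, and 3529 against 10290 FPKM in pair 2. Csf1r, the M-CSF receptor gene, differed by -0.43 in each pair (limma adjusted p = 0.282), and Adgre1, the F4/80 gene, stood at 18.3 (mock) and 19.7 FPKM (coculture) in pair 1 and at 32.1 (mock) and 32.7 FPKM (coculture) in pair 2. Of the 15 epithelial markers, 0 reached the filter, and their summed FPKM was 0.143 and 0 in mock and 0.205 and 0.045 in coculture. Epcam and Krt18 were listed at 0 in all 4 libraries. Krt8 was higher with CT26 in each pair, at very low levels. Its FPKM was 0.036 (mock 1), 0.068 (coculture 1), 0 (mock 2) and 0.045 (coculture 2). Of the 18 mesenchymal markers, 1 (Tagln) reached the filter. Their summed FPKM was 3.44 and 1.79 in mock and 3.43 and 2.21 in coculture, with Col3a1 listed at 0 in all 4 libraries. Acta2 was higher with CT26 in each pair, with FPKM of 0.402 (mock 1), 0.727 (coculture 1), 0.099 (mock 2) and 0.572 (coculture 2). Tagln was lower in each, by log2 differences of -0.18 and -0.17. Cav1 (0.282 against 0.156 FPKM) and Sparc (0.198 against 0.134 FPKM) were lower with CT26 in pair 1. Both had a listed 0 throughout pair 2. Which of these markers the CT26 cells of this culture express was not tested, and in bulk RNA a change in the share of cells and a change in RNA per cell cannot be told apart.

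**Figure D1:**
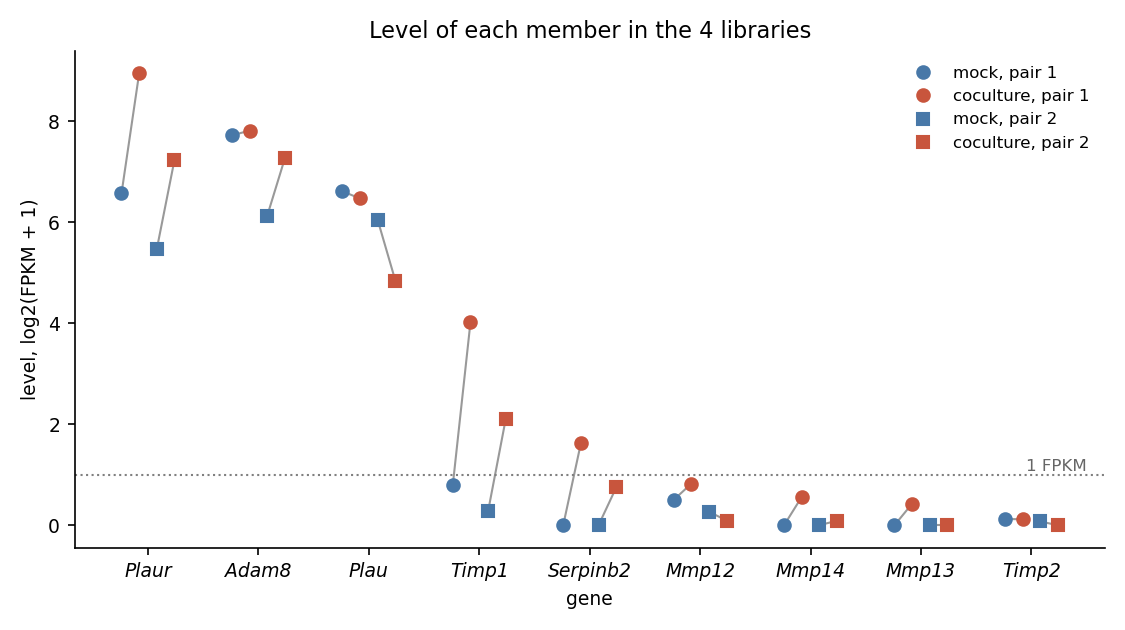
Level of the 9 members in each library, as log2(FPKM + 1), ordered by mean level; blue is mock, red is coculture, circles are pair 1, squares are pair 2, grey lines join the libraries of a pair, and the dotted line marks 1 FPKM. Plaur and Timp1 lie higher in coculture in both pairs, and 5 members stay at 2.08 FPKM or lower.

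The stretches before the start sites of 4 members are shown as examples. Plaur, Timp1 and Serpinb2 were higher in coculture in both pairs, and Mmp13 was listed at 0 in 3 of the 4 libraries; no member that was lower in coculture is among them. Each is the 250 bases before a start site, 5′ to 3′ on the gene's strand, from RefSeq on GRCm38.p6. The capitals mark a match to TGANTCA, a motif of AP-1, the Fos and Jun family of factors. No exon of GENCODE M21 falls in these 4 windows. Plaur is at chr7:24462233-24462482 on the plus strand, Serpinb2 at chr1:107511173-107511422 (plus; the first of its 2 listed starts), Mmp13 at chr9:7272264-7272513 (plus) and Timp1 at chrX:20869916-20870165 (plus).
Plaur: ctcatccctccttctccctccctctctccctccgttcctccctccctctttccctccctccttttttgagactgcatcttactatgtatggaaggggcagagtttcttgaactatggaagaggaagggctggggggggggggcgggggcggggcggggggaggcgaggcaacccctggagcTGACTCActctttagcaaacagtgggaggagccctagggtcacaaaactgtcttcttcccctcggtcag
Serpinb2: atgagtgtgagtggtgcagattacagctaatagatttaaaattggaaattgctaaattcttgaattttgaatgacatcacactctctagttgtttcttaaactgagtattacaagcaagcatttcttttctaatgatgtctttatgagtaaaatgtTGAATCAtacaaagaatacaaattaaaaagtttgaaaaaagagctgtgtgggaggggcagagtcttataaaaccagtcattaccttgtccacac
Mmp13: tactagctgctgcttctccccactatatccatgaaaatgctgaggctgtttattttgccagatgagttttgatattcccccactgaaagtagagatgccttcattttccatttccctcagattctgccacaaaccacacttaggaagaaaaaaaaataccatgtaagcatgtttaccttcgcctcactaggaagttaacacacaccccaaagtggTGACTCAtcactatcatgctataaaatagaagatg
Timp1: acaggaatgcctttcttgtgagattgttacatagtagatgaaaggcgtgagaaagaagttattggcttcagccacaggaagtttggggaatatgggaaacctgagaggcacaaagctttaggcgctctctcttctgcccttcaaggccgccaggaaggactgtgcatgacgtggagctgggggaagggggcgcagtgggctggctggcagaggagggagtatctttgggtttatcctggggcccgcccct

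The Plaur window held TGACTCA at 69 to 63 bases before the start. In the Serpinb2 window the match was TGAATCA, 94 to 88 bases before the start. Mmp13 had TGACTCA at 35 to 29 bases before its start, the same letters as Plaur, although their levels were far apart. The Timp1 window had no match to TGANTCA. Nor had those of Adam8 and Mmp14, which were higher in coculture in both pairs, or of Timp2, which was lower in both. Of the members, 8 genes had 10 listed starts, and Plau had none. The motif, searched on both strands, was held by 5 of those starts, from 4 genes (Plaur, Serpinb2, Mmp13 and 1 of the 2 starts of Mmp12). The windows of the 2 Serpinb2 starts overlap and hold the same match, which was counted at both. Over all 32851 windows of the same length, 6.75% held it. None of the members' windows held GGANTTTCC, a form of the kappaB motif found in 1.07% of all windows, or the cyclic AMP response element TGACGTCA, found in 1.55%. None of the 3 motifs contains another. A match describes the letters and was not tested as a site.

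Plaur, the urokinase receptor gene, had 93.9 FPKM in mock 1 against 492 FPKM in coculture 1. In pair 2 it had 43.3 FPKM in mock against 149 FPKM with CT26. Across the tables, both coculture values were also above both mock values. The share of all genes tested with that order was not computed. The level was 5.25-fold higher in pair 1 and 3.45-fold higher in pair 2. On the log2(FPKM + 1) scale the mean difference was 2.07 ± 0.18 (limma's moderated SE, n = 2 pairs; 95% interval 1.58 to 2.56), or 2.38 in pair 1 and 1.76 in pair 2. With a limma adjusted p of 0.0623 over the 10202 genes tested, it did not pass the threshold of 0.05. By difference Plaur ranked 45th from the top of those genes, and by level it went from rank 754 to rank 81 in pair 1 and from 1902 to 380 in pair 2. It did pass after median centring of the libraries (2.14, limma adjusted p = 0.0202) and after quantile normalization (2.03, limma adjusted p = 0.0355). Those 2 settings also raised the count of genes passing as higher from 13 to 85 and 43. Plaur did not pass with no filter (limma adjusted p = 0.245) or without trended variance (limma adjusted p = 0.109).

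Plau, the urokinase gene itself, had 96.8 FPKM in mock 1 against 87.6 FPKM in coculture 1, and 65.0 FPKM in mock 2 against 27.7 FPKM in coculture 2. The coculture library was the lower one in each pair, by 1.10-fold in pair 1 and 2.35-fold in pair 2, and coculture 1 was above mock 2. The mean difference was -0.67 ± 0.27 (limma's moderated SE, n = 2 pairs; 95% interval -1.40 to 0.06; limma adjusted p = 0.363), with -0.14 in pair 1 and -1.20 in pair 2. Plau did not pass the test, and without coculture 2, which compares across the 2 tables, the difference was 0.14.

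The receptor and its protease were at similar levels in mock and far apart in coculture. The ratio of Plaur to Plau, in FPKM, was 0.970 in mock 1 and 0.667 in mock 2. In coculture it was 5.62 in library 1 and 5.39 in library 2. The ratio was thus 5.79 times as high in coculture in pair 1 and 8.08 times in pair 2, and a ratio within a library does not depend on how that library was scaled. It was computed after the values were known and has no test; with 2 libraries against 2 the smallest two-sided exact permutation p is 0.333.

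**Figure D2:**
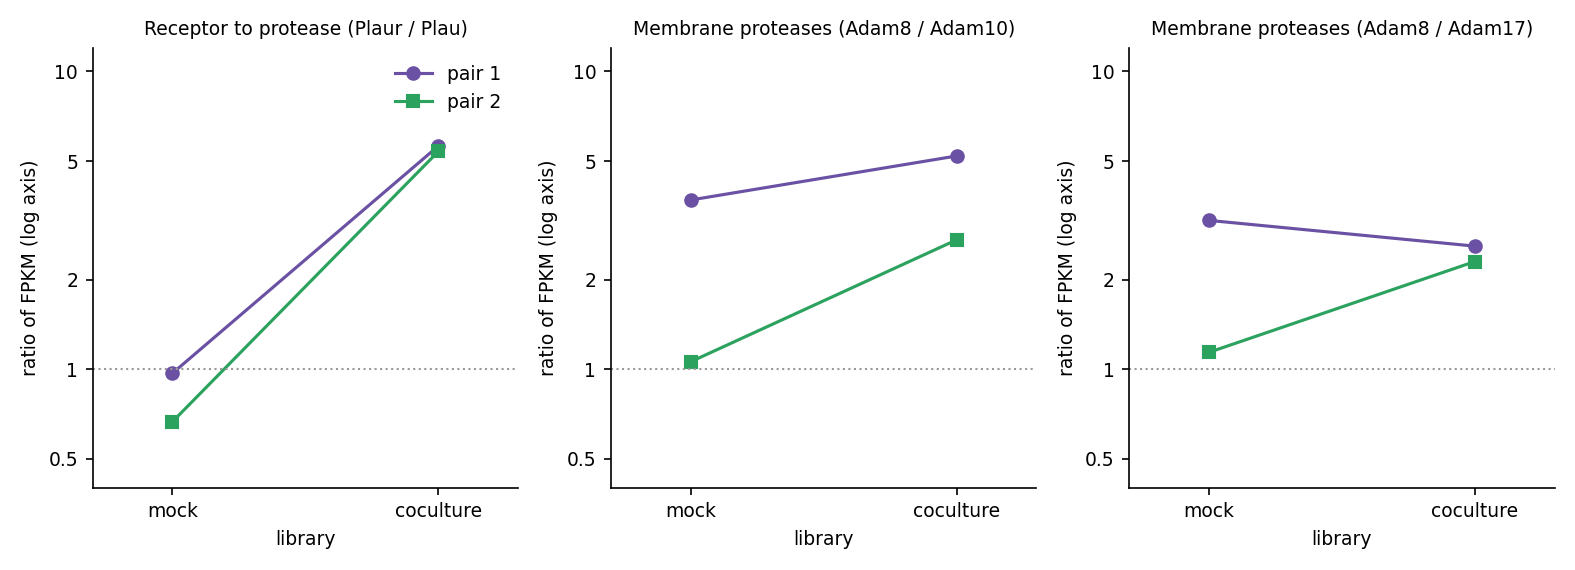
Ratio of FPKM between 2 genes within each library, on log axes, for the receptor to the protease (Plaur to Plau, left), and for Adam8 to 2 other membrane proteases, Adam10 (middle) and Adam17 (right); each line joins the mock and coculture library of 1 pair and the dotted line marks equal levels. The first ratio goes from 0.970 and 0.667 to 5.62 and 5.39, the second from 3.70 and 1.06 to 5.20 and 2.72, and the third from 3.16 and 1.14 to 2.59 and 2.30, lower in pair 1 and higher in pair 2.

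Serpinb2, which encodes PAI-2, a urokinase inhibitor induced in activated macrophages, was listed at 0 in both mock libraries. It was at 2.08 FPKM in coculture 1 and 0.679 FPKM in coculture 2, an estimated 79.0 and 19.5 reads. A level of 3 reads would be 0.0835 FPKM in mock 1 and 0.0813 FPKM in mock 2, so both coculture values were above what a listed 0 allows there, counting error only. Serpinb2 was below the filter. In the fit with no filter its difference was 1.18 ± 0.25 (moderated SE from limma over n = 2 pairs; limma adjusted p = 0.391). Of its exon bases in GENCODE M21, 12.4% are shared with the neighbouring serpin gene Serpinb10 on the same strand.

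Around the urokinase system, 32 other genes were listed for plasminogen activation and cell-surface partners, and 16 of them were tested. None passed the adjusted test in either direction; at an unadjusted limma p under 0.05, 7 were higher and 1 lower, where the background over all genes tested was 5.26% and 9.45%. Their median difference was 0.40, against -0.07 over all genes tested; 12 were higher in both pairs, 2 lower and 2 opposite. Procr, the endothelial protein C receptor gene, went from 7.40 to 13.1 FPKM in the first pair, and 1.77 to 16.6 FPKM in the second (limma adjusted p = 0.266). Itga5, the alpha 5 subunit of a fibronectin receptor, went from 53.8 to 235 FPKM in the first pair, and 25.7 to 47.2 FPKM in the second (limma adjusted p = 0.200). Itgam and Itgb2 encode the integrin Mac-1, a partner of the urokinase receptor on macrophages, and were chosen after their values were seen. On the log2 scale the Itgb2 difference was 0.51 in pair 1 and 0.54 in pair 2 (limma adjusted p = 0.190), and that of Itgam 0.24 and 0.69 (limma adjusted p = 0.305). Plg, the plasminogen gene, was listed at 0 in all 4 libraries.

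Timp1, which encodes a secreted inhibitor of matrix metalloproteinases, had 0.732 FPKM in mock 1 against 15.2 FPKM in coculture 1. In pair 2 it had 0.214 FPKM in mock against 3.31 FPKM with CT26. Both mock values were below 1 FPKM, so with the filter met both coculture values had to lie above them. Coculture 1 was well above coculture 2. The mock levels rested on an estimated 9.94 and 2.98 reads, and the coculture levels on 218 and 35.8 reads. From whole reads the ratio of coculture to mock was 20.6 in pair 1 (exact binomial 95% interval 11.0 to 43.5) and 15.4 in pair 2 (4.88 to 78.4), intervals that cover counting error only. The log2(FPKM + 1) difference, which understates the change of so low a gene, was 2.52 ± 0.38 (limma's moderated SE, n = 2 pairs; 95% interval 1.51 to 3.54), or 3.22 in pair 1 and 1.83 in pair 2. Timp1 did not pass over all genes (limma adjusted p = 0.125); with a pseudocount of 0.1 its difference was 3.82 (limma adjusted p = 0.0553). Timp1 lies within the span of Syn1, a neuronal gene on the opposite strand, with no shared exon bases in GENCODE M21. Syn1 was listed at 0.365 FPKM in mock 1, 0.652 FPKM in coculture 1, 0.217 FPKM in mock 2 and 2.27 FPKM in coculture 2, and its part in the Timp1 values was not tested.

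Timp2, another TIMP, which also takes part in the activation of MMP2 at the cell surface, was at the edge of detection. Its levels were 0.0899 FPKM in mock 1, 0.0851 FPKM in coculture 1, 0.053 FPKM in mock 2 and a listed 0 in coculture 2, where 3 reads would be 0.0631 FPKM. A difference in Timp2 was not detectable at this depth. Timp3 did not exceed 0.0658 FPKM, and Timp4 was listed at 0 throughout. The summed FPKM of the 4 Timp genes was 0.849 and 0.267 in mock and 15.3 and 3.31 in coculture, nearly all of it from Timp1.

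Of the matrix metalloproteinases, Mmp12, the macrophage elastase, went in opposite directions. It had 0.415 FPKM in mock 1 against 0.769 FPKM in coculture 1, and 0.205 FPKM in mock 2 against 0.066 FPKM in coculture 2. By estimated reads the ratio of coculture to mock was 1.85 in pair 1 (46 to 90 reads; exact binomial 95% interval 1.28 to 2.70) and 0.336 in pair 2 (23 to 6 reads; 0.112 to 0.848). Each interval excludes equal levels in its own pair, counting error only, and the mean difference over the pairs was 0.07. No direction can be given for Mmp12. Of its exon bases in GENCODE M21, 2.17% are shared with Mmp1b on the opposite strand.

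Mmp13, a collagenase, was at 0.346 FPKM in coculture 1, an estimated 15.0 reads, and was listed at 0 in the other 3 libraries, coculture 2 included. Mmp14, a membrane-anchored metalloproteinase that activates MMP2, was listed at 0 in both mock libraries and was at 0.475 and 0.065 FPKM in coculture. The 0.475 FPKM of coculture 1 stands for an estimated 45.8 reads, and the 0.065 FPKM of coculture 2 for 4.73 reads. The readable signal for Mmp13 and most of that for Mmp14 thus came from 1 library, coculture 1. In the fit with no filter, neither passed (limma adjusted p = 0.585 for Mmp13 and 0.503 for Mmp14).

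The rest of the metalloproteinase family was low. Of 20 other Mmp genes, 9 were listed at 0 in all libraries and 1, Mmp19, reached the filter, with a difference of 0.05 ± 0.29 (moderated SE from limma over n = 2 pairs; limma adjusted p = 0.952) and opposite signs in the pairs. Summed over all 23 Mmp genes, the level was 2.38 (mock) and 3.85 FPKM (coculture) in pair 1 and 3.08 (mock) and 6.45 FPKM (coculture) in pair 2. The metalloproteinase transcripts together were therefore a small fraction of the level of Plaur or Adam8 in every library. Among 10 listed inhibitors and regulators of metalloproteinases, 4 were tested and none passed in either direction. At an unadjusted limma p under 0.05, 2 were higher and 0 lower, against 5.26% and 9.45% of all genes tested. Their median difference was 0.62, against -0.07 over all genes tested. Rhbdf2, which encodes the iRhom2 partner of ADAM17, went from 14.6 to 58.2 FPKM in the first pair, and 11.5 to 24.4 FPKM in the second (limma adjusted p = 0.147). Furin, a convertase that activates MMP14 and ADAM precursors, went from 39.7 to 55.5 FPKM in the first pair, and 27.3 to 63.6 FPKM in the second (limma adjusted p = 0.230). Bsg, which encodes the metalloproteinase inducer basigin, had 187 FPKM in mock 1 against 197 FPKM in coculture 1, and 220 against 280 FPKM in pair 2 (limma adjusted p = 0.514).

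Adam8, a myeloid membrane protease that sheds surface proteins, was the most abundant member in both mock libraries. It had 210 FPKM in mock 1 against 224 FPKM in coculture 1, nearly level, and 69.0 FPKM in mock 2 against 153 FPKM in coculture 2, a 2.22-fold higher level. Mock 1 was above coculture 2, so the groups overlapped across the tables. The mean difference was 0.62 ± 0.27 (limma's moderated SE, n = 2 pairs; 95% interval -0.11 to 1.34; limma adjusted p = 0.387), or 0.09 in pair 1 and 1.14 in pair 2. Adam8 did not pass, and without mock 2, across the tables, its difference was -0.18. Of its exon bases, 0.992% are shared with a noncoding gene on the opposite strand, Gm16201.

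Among 16 other ADAM and ADAMTS genes, 5 were tested and none passed in either direction. At an unadjusted limma p under 0.05, 0 were higher and 1 was lower, against 5.26% and 9.45% of all genes tested. Adamts10, a secreted relative, went from 5.78 to 2.57 FPKM in the first pair, and 7.86 to 2.96 FPKM in the second, a difference of -1.04 ± 0.18 (moderated SE from limma over n = 2 pairs; limma adjusted p = 0.15). Adam10 differed by -0.29 ± 0.12 and Adam17, the TNF-releasing protease, by 0.26 ± 0.12. The ratio of Adam8 to Adam10 was 3.70 and 1.06 in mock and 5.20 and 2.72 in coculture, higher in both pairs. In pair 1 Adam8 was nearly level, while Adam10 went from 56.7 FPKM in mock to 43.0 FPKM in coculture. In pair 2 Adam8 was higher in coculture, and Adam10 went from 64.8 to 56.4 FPKM. The ratio of Adam8 to Adam17 went in opposite directions, from 3.16 to 2.59 in pair 1 and from 1.14 to 2.30 in pair 2. Both ratios were computed after the values were known and have no test.

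Order of level within a library set Plau, Plaur and Adam8 apart from the other members. In mock the order was Adam8, Plau, Plaur in both libraries, with Plau and Plaur close in mock 1 and Adam8 and Plau close in mock 2. Coculture 1 had Plaur first, then Adam8 and Plau, while coculture 2 had Adam8 at 153 FPKM and Plaur at 149 FPKM, nearly level, then Plau. Plaur made 23.4% and 24.4% of the members' summed FPKM in mock and 59.8% and 44.7% in coculture. The share of Plau was 24.1% and 36.6% in mock and 10.7% and 8.29% in coculture.

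Over the test as a whole, 0 members passed limma at an adjusted p under 0.05, where 0.127% of the 10202 genes tested passed as higher and 0% as lower (13 and 0 genes; 85 and 18 after median centring). At an unadjusted limma p under 0.05, 2 members (Plaur and Timp1) were higher and 0 lower, where the background was 5.26% higher and 9.45% lower. Differences of at least 2-fold on the log2(FPKM + 1) scale in the same direction in both pairs were found for the same 2 members, both higher, where 1.02% of the genes tested were higher by that rule and 0.353% lower. Timp1, as said, could reach the test only by being higher in coculture.

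**Figure D3:**
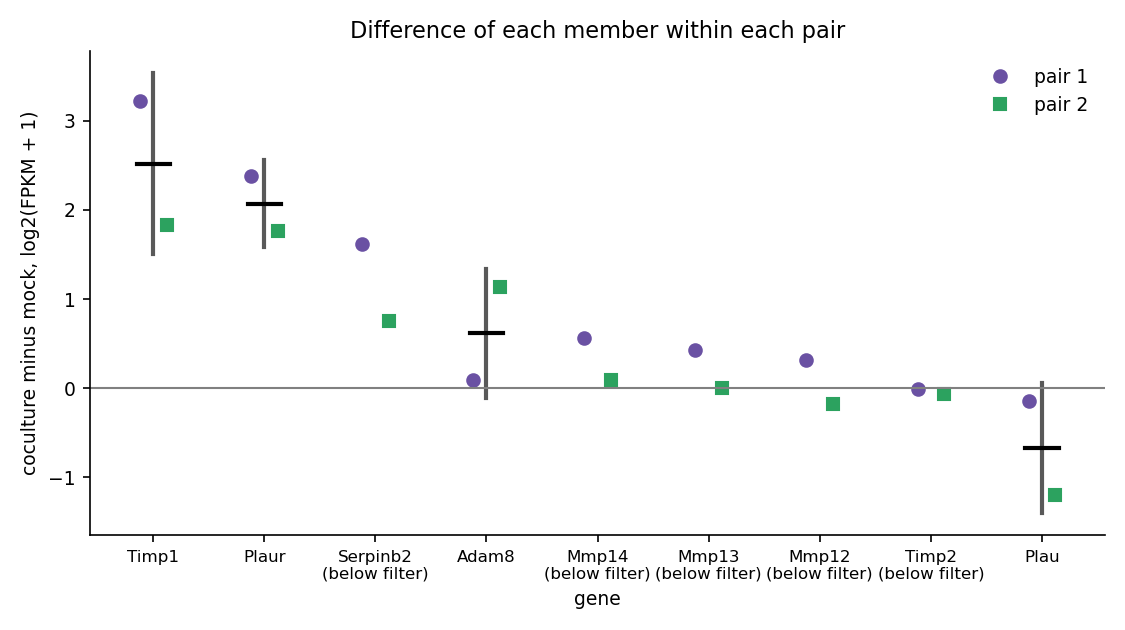
Coculture minus mock within each pair for the 9 members, on the log2(FPKM + 1) scale; purple circles are pair 1, green squares are pair 2, and black bars with grey lines are limma's mean and 95% interval for the 4 members tested. The intervals of Timp1 (1.51 to 3.54) and Plaur (1.58 to 2.56) lie above 0, and those of Adam8 and Plau span 0. The intervals are not adjusted for the number of genes tested, and none of the 4 members passed the adjusted test. Timp1 could reach the test only by being higher in coculture.

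The lysosomal and secreted proteases outside the members included several abundant genes. Of 19 cathepsins and other matrix-cleaving hydrolases, 13 were tested and none passed in either direction. At an unadjusted limma p under 0.05, 1 was higher and 2 were lower, against 5.26% and 9.45% of all genes tested. Their median difference was -0.15, against -0.07 over all genes tested. Ctsl, the cathepsin L gene, went from 362 to 446 FPKM in the first pair, and 91.4 to 226 FPKM in the second (limma adjusted p = 0.305). Lgmn, the legumain gene, went from 202 to 152 FPKM in the first pair, and 328 to 157 FPKM in the second (limma adjusted p = 0.244), and Ctsf from 16.9 to 13.1 FPKM in the first pair, and 27.5 to 19.9 FPKM in the second (limma adjusted p = 0.300).

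Of 15 cystatins, serpins and other inhibitors, 8 were tested and none passed in either direction. At an unadjusted limma p under 0.05, 5 were higher and 1 was lower, against 5.26% and 9.45% of all genes tested. Their median difference was 0.44, against -0.07 over all genes tested. Slpi, a secreted inhibitor of neutrophil elastase, went from 4.46 to 9.50 FPKM in the first pair, and 1.23 to 16.4 FPKM in the second (limma adjusted p = 0.243). Serpinb6b went from 1.89 to 5.80 FPKM in the first pair, and 5.49 to 10.4 FPKM in the second (limma adjusted p = 0.174). Cst3, which encodes the cathepsin inhibitor cystatin C, had 1071 FPKM in mock 1 against 923 FPKM in coculture 1, and 2114 against 584 FPKM in pair 2 (limma adjusted p = 0.360).

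**Figure D4:**
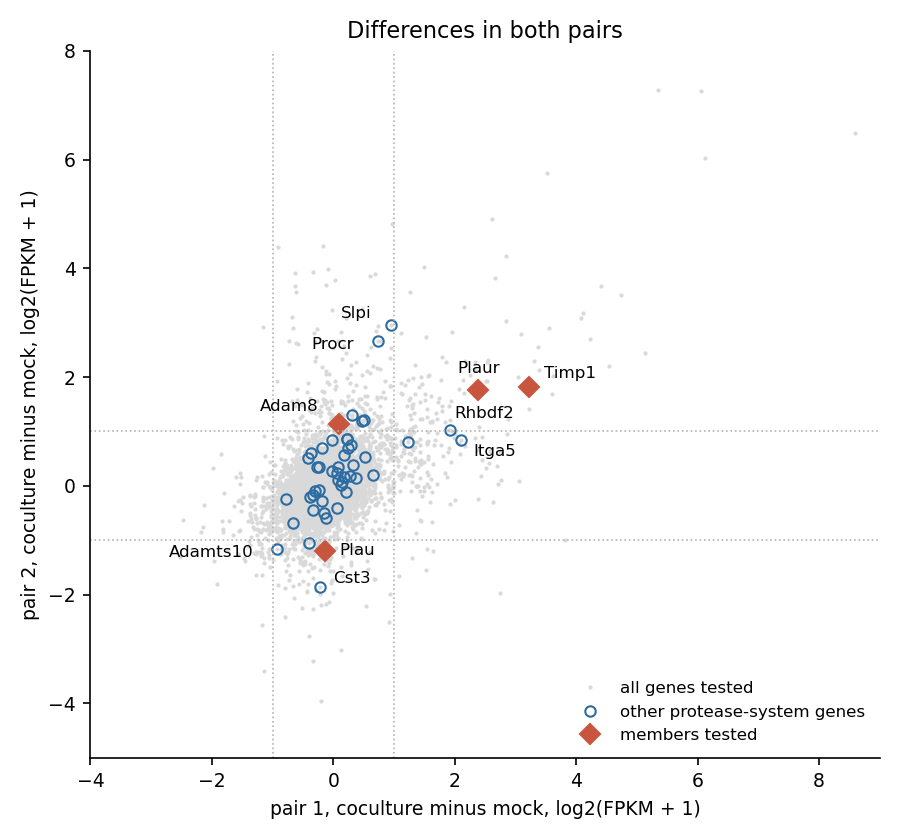
Coculture minus mock in pair 1 against pair 2, on the log2(FPKM + 1) scale, for the 10202 genes tested (grey), 46 other genes of the protease lists (open blue circles) and the 4 members tested (red diamonds); dotted lines mark a 2-fold difference. Plaur and Timp1 lie past 2-fold in both pairs, and so does Rhbdf2 among the genes labelled, while Adam8 and Plau lie past it in pair 2 alone.

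The genes whose 2 within-pair differences lay nearest to those of Plaur, by Euclidean distance and with 2 FPKM or more on average, were Lilr4b (distance 0.115), Nfkbia (0.214), Slfn2 (0.226), Tnip1 (0.231) and Bcl3 (0.302). Lilr4b went from 56.8 to 286 FPKM in the first pair, and 39.6 to 128 FPKM in the second, and Nfkbia, an inhibitor of NF-kappaB, from 40.1 to 235 FPKM in the first pair, and 45.3 to 175 FPKM in the second. The nearest to Timp1 were Marcksl1 (distance 0.255), Ikbke (0.344), Pim1 (0.396), Fas (0.418) and Errfi1 (0.443). Marcksl1 went from 54.2 to 454 FPKM in the first pair, and 36.8 to 151 FPKM in the second. Each distance rests on 2 pairs from 4 shared libraries and is a description.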

How the data were processed

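Messenger RNA of 2 mock and 2 coculture libraries of RAW264.7 cells was measured. The authors deposited FPKM values in 2 tables, each with 1 mock and 1 coculture library. The submitters' processing notes list featureCounts, Subread and Trim Galore and the human build hg38, though the gene symbols are those of mouse. Their versions, annotation, strand setting and gene lengths are not given. Rows without a name (23) or with a repeated name (287), all in the first table, were left out. Differences, coculture minus mock, were fitted on log2(FPKM + 1) with limma 3.58.1 in R 4.3.3 (trended prior, two-sided, Benjamini-Hochberg). The 10202 genes tested reached 1 FPKM in 2 or more libraries. The fit had the pair as a block because each table may have its own normalization. It left 1 residual degree of freedom, beside a prior of 3.43. Libraries of a pair deviated together (correlation of deviations 0.76). The script was tested on simulated data. Reads were estimated from FPKM, union exon lengths of GENCODE M21 and the library total at which low values become whole reads; the authors' lengths may differ. Genes of other lists were named by rule: up to 3 per list, averaging 2 FPKM or more, with the largest mean difference, where both pairs had the same sign; and, for Plaur and Timp1, the 5 nearest genes. Of the genes so named, 2 are not reported here. Members and lists were chosen with earlier results of these data known. The 13 alternatives covered pseudocount, filter, scaling, prior, block and each library left out.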

Additional observations from a re-analysis of the deposited data

How the results depend on the processing

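Among the 4 members tested, Plaur and Timp1 were higher in coculture under every alternative that gave a value. Plaur differed by 1.21 to 2.93 over 13 (limma adjusted p 0.0202 with median centring and 0.245 with no filter). Timp1 differed by 1.57 to 3.82 over 12 (limma adjusted p 0.0525 with median centring and 0.353 with no filter). The filter of 5 FPKM removes Timp1. It met the filter of 1 FPKM through its coculture libraries alone, so with that filter it could only be higher. All alternatives reuse the same 4 libraries. Plaur passed after median centring and quantile normalization, so that 1 and 1 members passed there, against 0 otherwise; without the replicate block 0 passed, with the same differences (2.07 for Plaur) and a limma adjusted p of 1.0. With each library left out in turn, Plau ranged from -1.48 to 0.14 (reversed without coculture 2) and Adam8 from -0.18 (reversed without mock 2) to 1.41; leaving out a library breaks the pairing, so these fits compare across tables and the lone library is assumed to vary like the other group. With at least 5 FPKM, 1 member was 2-fold apart in both pairs, against 2. The count of genes higher in coculture, 13, was 22 with a pseudocount of 0.1, 0 with no filter, 25 with at least 5 FPKM, 25 rescaled to a common total, 85 with median centring, 43 with quantile normalization, 1 without trended variance, 1 without the replicate block and 0 without any single library; genes lower, 0, were 1 with at least 5 FPKM, 1 rescaled, 18 with median centring and 3 with quantile normalization. The cause was not tested. Depth limits Timp2, Mmp13 and Mmp14, which rest on few or no reads in most libraries.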

Other observations

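Among genes below the filter, chosen after their values were seen, Mmp9, the gelatinase B gene, had 0.166 FPKM in mock 1 against 0.982 FPKM in coculture 1, and a listed 0 in mock 2 against 1.75 FPKM in coculture 2. It was the only one of the 19 other Mmp genes below the filter to exceed 1 FPKM in a library. Plat, which encodes tissue plasminogen activator, was at 0.129 and 0.730 FPKM in pair 1 and at a listed 0 and 0.256 FPKM in pair 2. Both genes were higher in coculture in each pair, with no test.

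Of the 12 macrophage markers, 7 were lower in coculture in both pairs, as were 42.2% of all genes tested, and 2 were higher. Cd14, the lipopolysaccharide co-receptor gene, went from 607 to 1732 FPKM in the first pair, and 354 to 1149 FPKM in the second. Its limma adjusted p was 0.0623. Laptm5, a lysosomal membrane protein gene of blood cells, went from 372 to 306 FPKM in the first pair, and 529.5 to 257.5 FPKM in the second (limma adjusted p = 0.304).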
